A study of Gallus gallus with 5 samples.

Results

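The genes described here encode mitochondrial ribosomal proteins, measured in the blastoderm of the chicken, Gallus gallus. The blastoderm is the sheet of cells from which the embryo forms. They were chosen by name, as every symbol that begins with MRPL or MRPS and a number. Of 73 such symbols in the RefSeq gene table, 55 were matched to a row of the deposited data, 31 named MRPL and 24 named MRPS, among 10102 genes with a symbol. The other 18 had no matched row and were not analysed here. Those were MRPS2, MRPS22, MRPS24, MRPL1, MRPL9, MRPL14, MRPL22, MRPL24, MRPL30, MRPL34, MRPL35, MRPL36, MRPL40, MRPL43, MRPL49, MRPL54, MRPL55 and MRPL58.

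RNA-seq of polyadenylated RNA was done on 5 libraries, 1 per condition. Blastoderms were stored for 7 days at 4, 16 or 24 °C, incubated for 4 h at 37 °C, or left unstored. The breed, the stage and how many blastoderms entered a library were not given in the sources used here. With 1 library per condition there is no replicate check, so the differences below lie between libraries and carry no SD, standard error or p-value. The series title names apoptosis and a G2/M block of dividing cells in dormant embryos, whose development pauses when the egg is cool.

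The mitochondrial ribosome makes the few proteins encoded in mitochondrial DNA, which are core subunits of the respiratory chain. Its RNA comes from the mitochondrial genome, while all of its proteins are encoded in the nucleus, made in the cytosol and imported. It has a small subunit, which reads the messenger RNA, and a large subunit, which joins the amino acids. Some of its proteins have a counterpart in the bacterial ribosome, and others are known only from mitochondria. The mitochondria of an early embryo are inherited from the egg.

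In the blastoderm most of these transcripts lay above the median of all genes, and as a group they were lower in 3 of the 4 libraries compared with the unstored one. FPKM, fragments per kilobase of transcript and 1000000 mapped fragments, allow levels of different genes to be set side by side. The median FPKM of the 55 genes was 30.1 after storage at 4 °C, 17.4 at 16 °C, 18.2 at 24 °C, 22.3 after incubation and 28.7 in the unstored library. The median of all 7733 genes that reached FPKM 1 in any library ranged from 10.7 to 12.8. Above that median lay 43 of the 55 at 16 °C, the fewest, and 52 both at 4 °C and unstored. All 55 members reached FPKM 1 in every library, and the lowest value of any was 3.18, for MRPS16 at 16 °C. Summed over the 55 genes, FPKM came to 1765 at 4 °C, 1184 at 16 °C, 1177 at 24 °C, 1314 after incubation and 1692 unstored. As a share of all FPKM in a library, this was 0.454% at 4 °C, 0.354% at 16 °C, 0.353% at 24 °C, 0.364% after incubation and 0.462% unstored. The libraries stored at 16 and 24 °C were thus the lowest by either measure, and the 4 °C library lay next to the unstored one.

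**Figure D1:**
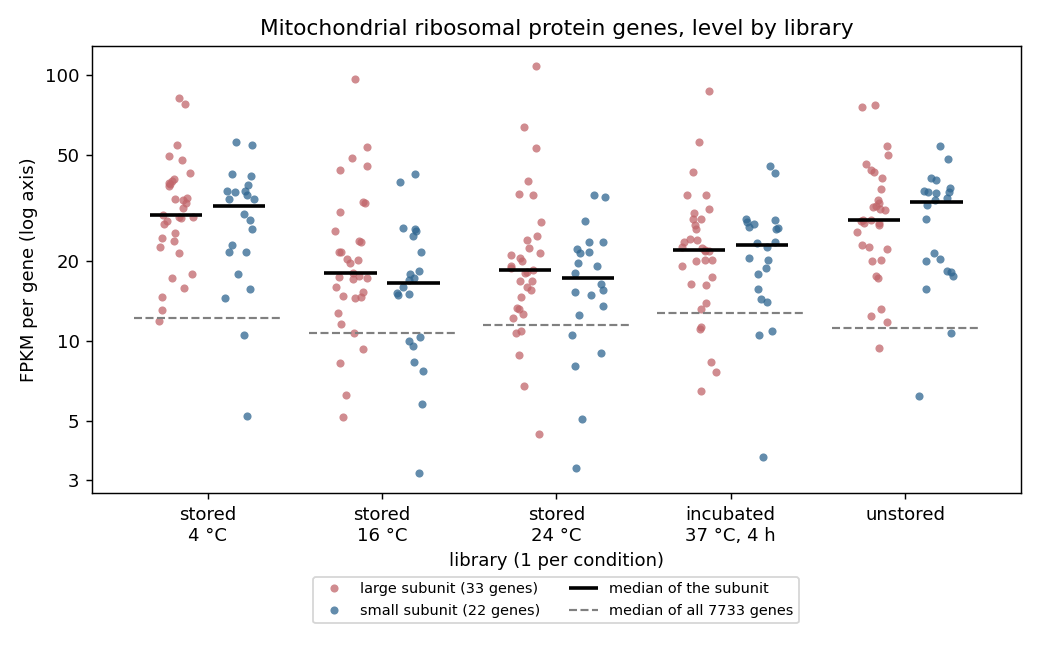
Points give the FPKM (log axis) of each mitochondrial ribosomal protein gene in each of the 5 libraries, with large subunit genes in red and small subunit genes in blue, black bars for the median of each subunit and dashed lines for the median of all 7733 genes. The small subunit median is 16.5 at 16 °C and 17.2 at 24 °C, against 33.3 in the unstored library.

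Sorted by subunit, 33 of the genes encode proteins of the large subunit, which include MRPS30 and MRPS18A despite their names, and 22 are grouped here with the small subunit. The 22 include MRPS36, a name of the small subunit series, although that protein has since been assigned to the 2-oxoglutarate dehydrogenase complex of the citrate cycle rather than to the ribosome. Of the 33, 17 have a bacterial counterpart, and of the 22, 13 have one. MRPL3, whose bacterial counterpart lies near the site of peptide bond formation, had the highest mean, with FPKM 77.8 at 4 °C, 97.3 at 16 °C, 108 at 24 °C, 87.7 after incubation and 76.2 unstored. It was followed by MRPL28 (mean FPKM 64.6), MRPL33 (46.9), MRPS26 (46.1) and MRPS31 (44.7). MRPS16 (4.67), MRPL10 (7.72) and MRPL41 (9.29) had the lowest means. The label of the series' tissue was checked against epiblast genes. NANOG and EPCAM were at FPKM 223 or more in every library, and SOX2 was at 0.33 or less.

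Storage at 4 °C left the members close to the unstored library. Ratios are given as differences of log2(FPKM + 1), which understate changes of low genes, and a gene was counted as 2-fold different when this difference reached 1. None of the 55 was 2-fold higher or lower, against 0.637% and 0.0909% of the 7697 genes compared. By any amount, 18 members were lower, beside 30.9% of all genes. The median log2 ratio was 0.06, where that of all genes was 0.10. With FPKM divided by size factors it was -0.055 and with FPKM rescaled to one total it was -0.023, so no direction is given. Of all genes past 2-fold, 87.5% were higher as deposited, 72.1% with size factors and 71.3% rescaled. MRPL17, a protein near the exit of the peptide tunnel in bacteria, was the only member at least 1.5-fold different. It had FPKM 40.6 at 4 °C and 25.8 unstored (log2 ratio 0.64), beside 3.99% of all genes that far higher, and no member was 1.5-fold lower, beside 0.857%. It did not reach 1.5-fold under either other scaling. MRPL10 (0.43), MRPL37 (0.37), MRPS9 (0.37) and MRPL2 (0.33) followed, and at the other end were MRPL33 (-0.34), MRPS10 (-0.26), MRPS16 (-0.22), MRPL27 (-0.21) and MRPL21 (-0.21).

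After storage at 16 °C, most members were lower than in the unstored library, and small subunit genes were among the lowest. Of the 55, 49 were lower by any amount, where 52% of all genes were. The median log2 ratio was -0.63, against -0.04 for the 7689 genes compared. At least 1.5-fold lower were 30 members (54.5%), where 20.7% of all genes were, and none was 1.5-fold higher, where 18% of all genes were. At least 2-fold lower were 9 members (16.4%), beside 8.75% of all genes, and none was 2-fold higher, beside 7.66%. Of all genes past 2-fold, 46.7% were higher as deposited and 60.5% after rescaling. Under rescaling 10.9% of the members were 2-fold lower, beside 8.43% of all genes, and 41.8% were 1.5-fold lower, beside 19.0%. Among the 5447 genes with a mean FPKM of at least 5, which excludes low genes, 10.3% were 2-fold lower and 23.1% were 1.5-fold lower.

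The 9 genes at least 2-fold lower at 16 °C were 2 of the large subunit and 7 of those grouped with the small one, or 6 without MRPS36. MRPS27, a protein with pentatricopeptide repeats known only from mitochondria, had FPKM 9.6 at 16 °C and 35.98 unstored (-1.80). MRPS6, whose bacterial counterpart sits on the platform of the small subunit, had 5.77 at 16 °C and 18.1 unstored (-1.50). MRPS7, the counterpart of a protein that starts assembly of the head in Escherichia coli, had 14.98 at 16 °C and 40.35 unstored (-1.37). MRPS35 (-1.12), MRPS36 (-1.06), MRPS5 (-1.06) and MRPS34 (-1.04) were the other genes named for the small subunit. MRPS5 is the counterpart of a bacterial protein that affects the accuracy of decoding. The large subunit genes were MRPL46, with FPKM 15.3 at 16 °C and 41.2 unstored (-1.37), and MRPL51 (-1.19), both known only from mitochondria. Each of the 9 was at its lowest or second lowest level here among the 5 libraries.

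A few members of the large subunit were not lower at 16 °C. MRPL2, whose bacterial counterpart also lies by the peptidyl transferase centre, had FPKM 18 at 16 °C and 12.4 unstored (0.50). MRPL3 was next (0.35), followed by MRPL57 (0.19), MRPS30 (0.18) and MRPL20 (0.04). None of these reached 1.5-fold.

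At 24 °C the members were again mostly lower than unstored, by about as much as at 16 °C. Of the 55 members, 48 were lower by any amount, where 48.2% of all genes were. The median log2 ratio was -0.64, against 0.04 for all genes. There were 31 members (56.4%) at least 1.5-fold lower, beside 20.2% of all genes, and 8 (14.5%) at least 2-fold lower, beside 8.37%. No member was 1.5-fold higher, where 22.9% of all genes were, or 2-fold higher, where 10.5% were. Of all genes past 2-fold, 55.6% were higher as deposited and 67.0% after rescaling. Under rescaling 4 members (7.27%) were 2-fold lower, beside 8.28% of all genes, so the share of members was no longer the larger one. With size factors it stayed the larger one, at 16.4% beside 9.14%. Rescaling also raises all FPKM while the added 1 is kept, so low genes pass the thresholds more easily. At least 1.5-fold lower after rescaling were 43.6% of the members, beside 17.8% of all genes. With a mean FPKM of at least 5, 9.53% of all genes were 2-fold lower and 22.7% were 1.5-fold lower. Both storage comparisons use the same unstored library.

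MRPS6 showed the largest difference of any member at 24 °C, with FPKM 3.31 against 18.1 unstored (-2.15). MRPS27 had 8.97 at 24 °C and 35.98 unstored (-1.89), and MRPL46 had 12.7 at 24 °C and 41.2 unstored (-1.62). All 3 were at their lowest of the 5 libraries here. MRPS5 (-1.16), MRPS7 (-1.04) and MRPS35 (-1.01) were at least 2-fold lower as well, as were 2 genes of the large subunit. MRPL23, whose bacterial counterpart lies at the mouth of the peptide tunnel, had FPKM 24.8 at 24 °C and 54.3 unstored (-1.10). MRPL38 had 13.3 at 24 °C and 28.2 unstored (-1.03). On the other side stood MRPL2 (0.52), MRPL3 (0.50), MRPL33 (0.35), MRPS18C (0.28) and MRPS12 (0.20), the counterpart of a decoding protein.

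After incubation for 4 h at 37 °C the members were mostly lower than unstored as well, with a median nearer to 0, while the median of all genes was above 0. Of the 55, 46 were lower by any amount, where 41.4% of all genes were. The median log2 ratio was -0.43, against 0.12 for the 7700 genes compared, a distance of -0.54. With size factors the member median was -0.55, close to the -0.58 at 16 °C, and it was -0.68 at 24 °C. At least 1.5-fold lower were 12 members (21.8%), beside 9.45% of all genes, and 2 (3.64%) were at least 2-fold lower, beside 2.55%. No member was 1.5-fold higher, where 22.2% of all genes were, or 2-fold higher, where 8.48% were. Of all genes past 2-fold, 76.9% were higher as deposited and 64.6% with size factors. Under size factors 24 members (43.6%) were 1.5-fold lower, beside 13.1% of all genes, and 4 (7.27%) were 2-fold lower, beside 3.60%.

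The 2 genes past 2-fold after incubation were MRPL46 and MRPS23. MRPL46 had FPKM 16.3 after incubation and 41.2 unstored (-1.29), a level close to that at 16 and 24 °C. MRPS23, a small subunit protein known only from mitochondria, had 15.7 after incubation and 36.3 unstored (-1.16), below its 26.6 at 16 °C and 18.1 at 24 °C. MRPS10 (-0.99), MRPL23 (-0.96) and MRPL50 (-0.81) came next. The highest was MRPS33, with FPKM 23.7 after incubation and 15.8 unstored (0.56), before MRPL2 (0.38), MRPL3 (0.20), MRPS36 (0.15) and MRPL20 (0.14).

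**Figure D2:**
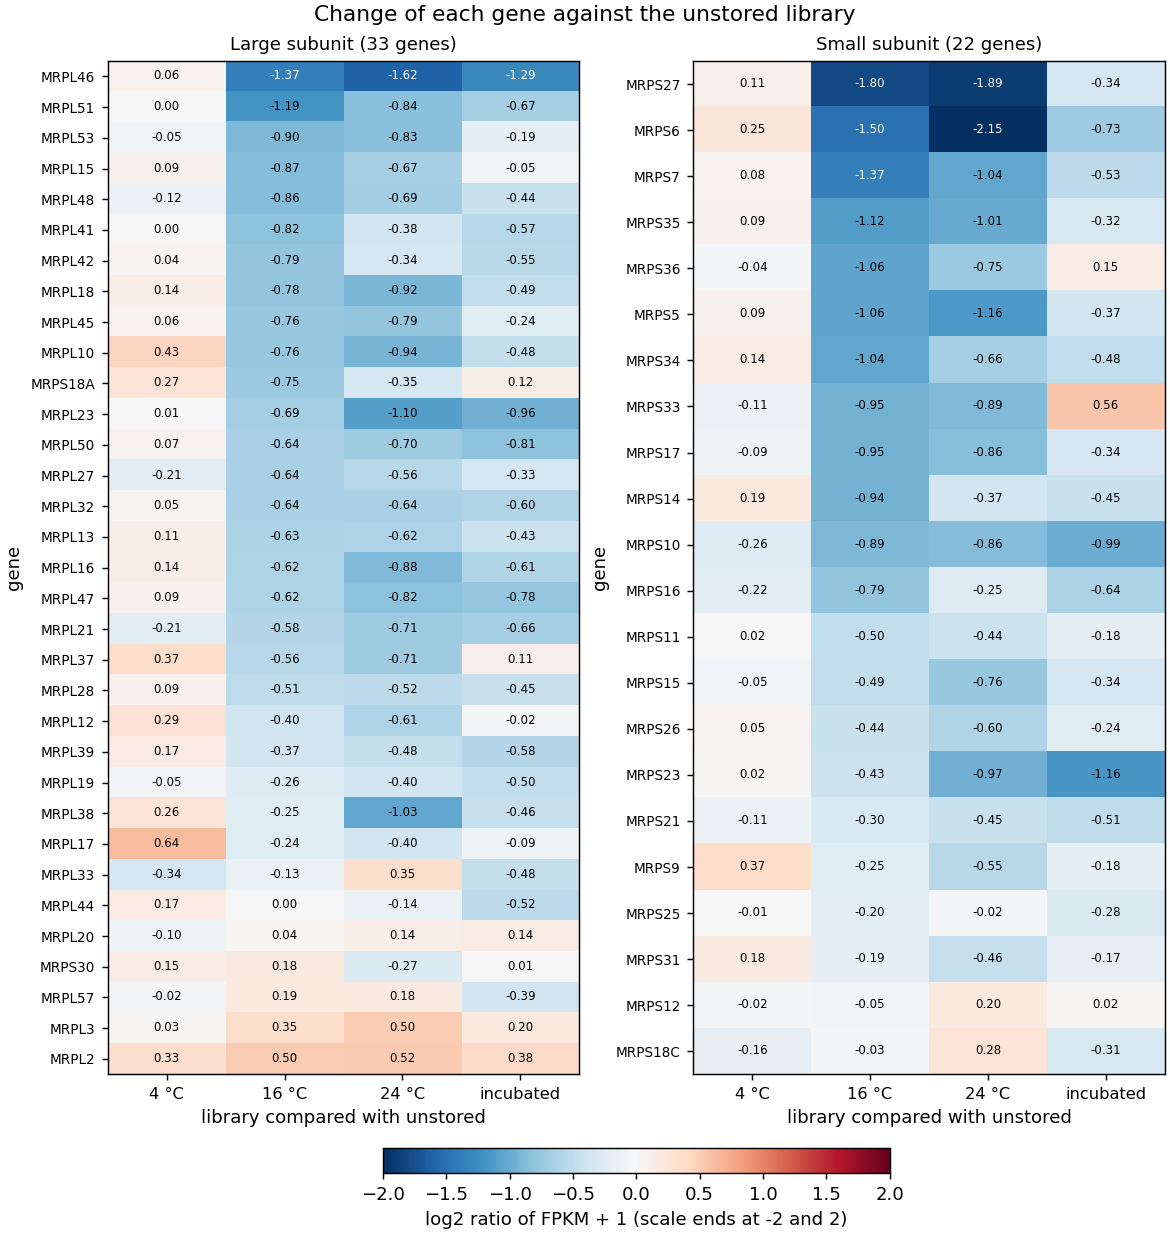
Each cell gives the log2 ratio of FPKM + 1 of a gene (rows, sorted by the ratio at 16 °C within each subunit) against the unstored library, for storage at 4, 16 and 24 °C and for incubation (columns), with blue for lower and red for higher. The lowest cells are MRPS6 at 24 °C (-2.15), MRPS27 at 24 °C (-1.89) and MRPS27 at 16 °C (-1.80), and the 4 °C column lies between -0.34 and 0.64.

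In 3 comparisons the bulk of the members lay lower than that of all genes. The interquartile range of the members lay between -0.88 and -0.25 at 16 °C, -0.86 and -0.38 at 24 °C, and -0.56 and -0.18 after incubation. That of all genes lay between -0.48 and 0.41, -0.46 and 0.54, and -0.25 and 0.52 in the same order. The highest member was at 0.50, 0.52 and 0.56.

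**Figure D3:**
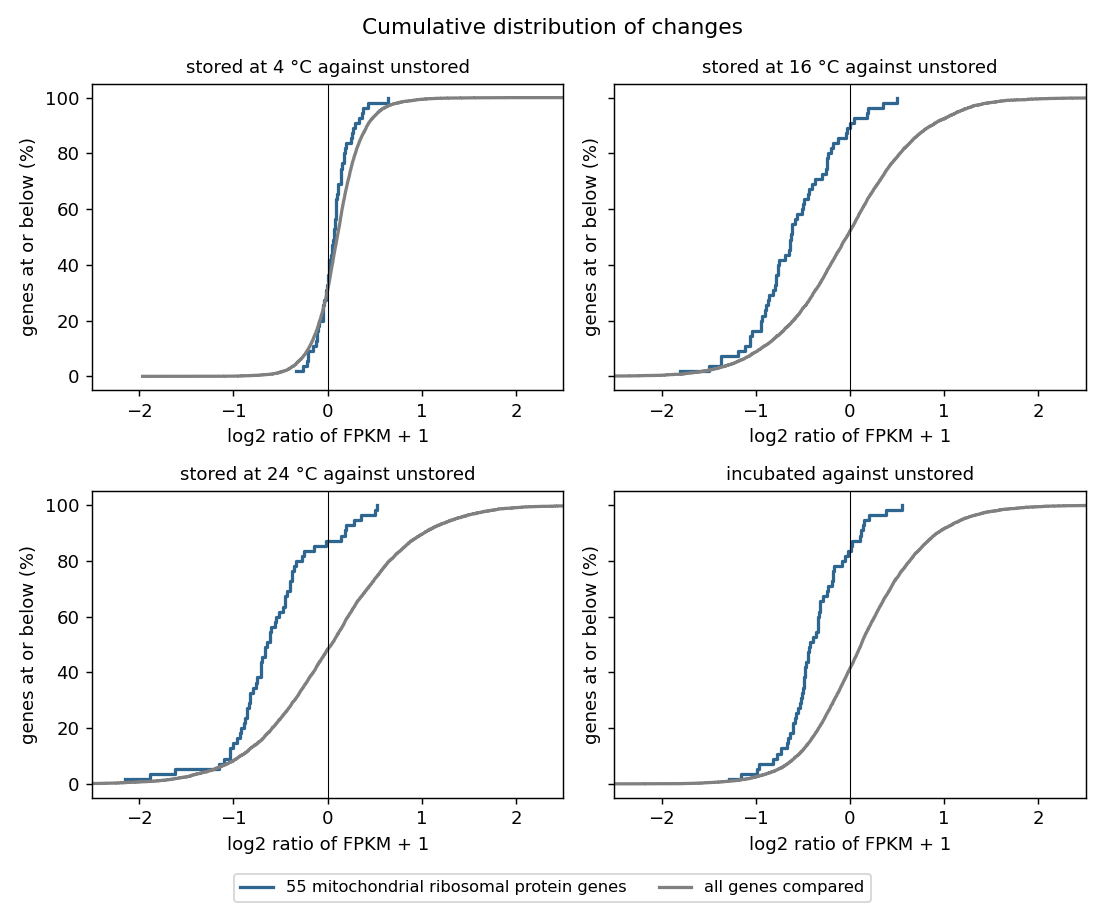
Curves give the percentage of genes (vertical axis) at or below each log2 ratio of FPKM + 1 against the unstored library (horizontal axis), in blue for the 55 mitochondrial ribosomal protein genes and in grey for all genes compared. Over most of its length the blue curve lies left of the grey one at 16 °C, 24 °C and after incubation, with medians of -0.63, -0.64 and -0.43, and near it at 4 °C, with 0.06.

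The subunits were compared by their sums and by their single genes. Summed FPKM of the small subunit was 663 at 4 °C, 394 at 16 °C, 392 at 24 °C, 498 after incubation and 646 unstored. That of the large subunit was 1102, 790, 785 and 815 in the same libraries and 1047 unstored. Relative to unstored, the small subunit stood at 61.0% at 16 °C and 60.7% at 24 °C, and the large subunit at 75.5% and 75%. After incubation these were close to each other, at 77.2% and 77.9%. MRPL3 alone held FPKM 97.3 of the large subunit sum at 16 °C, and without it, a choice made after its values were seen, the large subunit stood at 71.4% at 16 °C and 69.7% at 24 °C. Per gene, the median log2 ratio at 16 °C was -0.84 for the 22 small subunit genes and -0.62 for the 33 large subunit genes, and at 24 °C it was -0.70 and -0.62. After incubation the order was the other way, with -0.34 for the small and -0.46 for the large subunit. Without MRPS36, a choice made after its values were seen, the small subunit median was -0.79 at 16 °C, -0.66 at 24 °C and -0.34 after incubation, and its sum stood at 61.4%, 60.8% and 76.2% of unstored. The share of genes at least 1.5-fold lower than unstored at 16 °C was the same, with 18 of the 33 and 12 of the 22 (54.5% each). Against the library stored at 4 °C, the median at 16 °C was -0.71 for the large and -0.62 for the small subunit. At 24 °C against 4 °C these were -0.69 and -0.70. These differences between subunits have no test.

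Within the small subunit the genes were uneven. Of those whose bacterial counterparts build the head, MRPS7 (-1.37 at 16 °C and -1.04 at 24 °C), MRPS10 (-0.89 and -0.86) and MRPS14 (-0.94 and -0.37) were further from 0 at 16 °C than MRPS9 (-0.25 and -0.55). On the platform, MRPS6 (-1.50 and -2.15) and MRPS18C (-0.03 and 0.28), whose bacterial counterparts bind next to each other, lay at opposite ends. MRPS11 (-0.50 and -0.44), MRPS15 (-0.49 and -0.76) and MRPS21 (-0.30 and -0.45) lay between them. In the body, MRPS17 (-0.95 and -0.86) and MRPS5 were low, and MRPS12 (-0.05 and 0.20) was near 0. Of the proteins known only from mitochondria, MRPS33 (-0.95 and -0.89) was low and MRPS25 (-0.20 and -0.02) was near 0.

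In the large subunit, MRPL10 and MRPL12 of the lateral stalk, which recruits translation factors, were lower at 16 and 24 °C than unstored. MRPL10, the base of the stalk, had FPKM 13.1 at 4 °C, 5.15 at 16 °C, 4.46 at 24 °C, 6.49 after incubation and 9.44 unstored. MRPL12, its mobile part, had 28.2 at 4 °C, 17.1 at 16 °C, 14.7 at 24 °C, 22.5 after incubation and 22.9 unstored. Both were highest at 4 °C and lowest at 24 °C. MRPL45, which in human mitochondria holds the ribosome at the inner membrane, was at -0.76 and -0.79 at 16 and 24 °C, and MRPL44, which has a fold like that of an RNase, was at 0.00 and -0.14. Over both subunits, the median of the 30 genes with a bacterial counterpart was -0.60 at 16 °C and -0.59 at 24 °C, and the 25 others, which include MRPS18A, had -0.75 and -0.70.

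**Figure D4:**
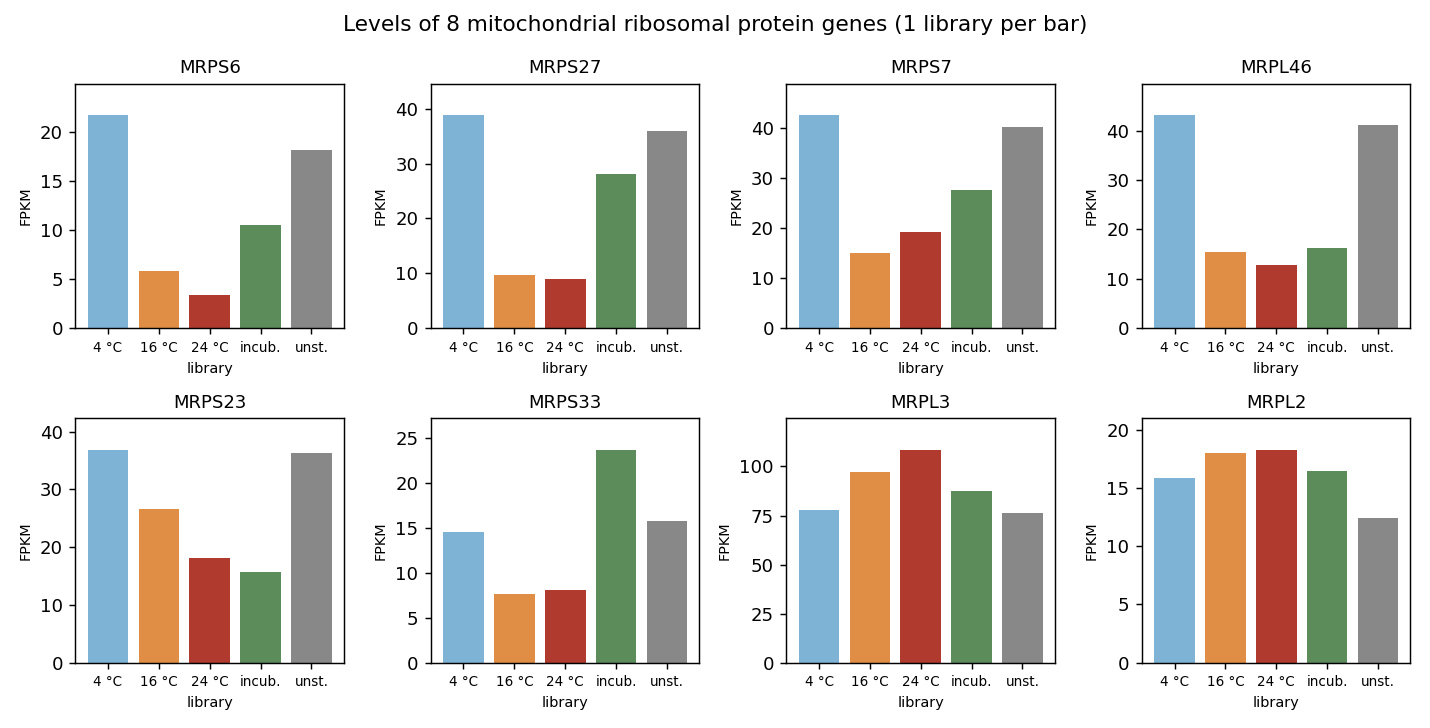
Bars give the FPKM of 8 members in the libraries stored at 4, 16 and 24 °C, incubated and unstored, each panel with its own axis from 0. MRPS6, MRPS27 and MRPS7 are low in both warm storage libraries, MRPL46 is low there and after incubation (15.3, 12.7 and 16.3), MRPS33 is highest after incubation (23.7), and MRPL3 and MRPL2 are highest at 24 °C (108 and 18.2).

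Storage temperatures were then compared with each other. Between 24 and 16 °C the members hardly differed, with a median log2 ratio of -0.01 beside 0.07 for all 7693 genes. None was 2-fold different, where 2.83% of all genes were higher and 1.23% lower at 24 °C, and none was 1.5-fold higher, where 11.7% were. MRPL38 (-0.79) and MRPS6 (-0.65) were at least 1.5-fold lower at 24 °C, 2 members beside 6.43% of all genes. MRPS14 (0.56) and MRPS16 (0.54) had the highest values, below 1.5-fold. Against 4 °C, in contrast, 12 members (21.8%) were 2-fold lower at 16 °C, beside 13% of all genes, and 33 (60.0%) were 1.5-fold lower, beside 27.8%. At 24 °C against 4 °C, 13 members (23.6%) were 2-fold lower, beside 11.7% of all genes, and 35 (63.6%) were 1.5-fold lower, beside 25.6%. The medians were -0.70 in both, where all genes were at -0.15 and -0.08. MRPL33 was the only member at least 1.5-fold higher at 24 °C than at 4 °C, with FPKM 64.1 and 39.3 (0.69), beside 19.9% of all genes.

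Storage was also compared with incubation. The library stored at 4 °C was higher than the incubated one for 49 of 55 members, where 48.3% of all genes were higher, with a median of 0.44 beside -0.02 for all genes. At least 1.5-fold higher were 20 members (36.4%), beside 11.1% of all genes, and 2 were 2-fold higher, beside 2.84%, namely MRPL46 (1.35) and MRPS23 (1.18). MRPS33 alone was at least 1.5-fold lower at 4 °C (-0.67), beside 15.5% of all genes. At 16 °C the median against incubation was -0.15, the same as that of all genes, and at 24 °C it was -0.23, where all genes were at -0.09. MRPS33, MRPS27 and MRPS36 were 2-fold lower at 16 °C than after incubation (-1.51, -1.46 and -1.21), 3 members (5.45%) beside 14.3% of all genes. MRPS27, MRPS33 and MRPS6 were 2-fold lower at 24 °C (-1.55, -1.44 and -1.42), 3 members (5.45%) beside 10.2%. At 16 and 24 °C the members as a group therefore lay near their level after incubation. The share of members 2-fold lower was below that of all genes in both, and MRPS33 had its highest level after incubation.

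Other genes of mitochondrial translation were set beside the members from fixed lists. Further proteins of the same ribosome carry other names, and of 5 listed, AURKAIP1 and CHCHD1 were measured. AURKAIP1 had FPKM 22.1 at 16 °C, 23.0 at 24 °C, 20.1 after incubation and 40.0 unstored. CHCHD1 had 6.99 at 16 °C (-1.02), 9.41 at 24 °C (-0.64), 11.2 after incubation (-0.41) and 15.2 unstored. Both were lower in those 3 libraries, as most members were.

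Factors that assist the ribosome were read next. Of 16 genes listed as translation factors, 11 were measured. The list is broad, as LRPPRC, SLIRP and LETM1 in it are not translation factors in the strict sense. At 16 °C and at 24 °C 1 of the 11 was 2-fold lower (9.09%, beside 8.75% and 8.37% of all genes). It was GFM1, the elongation factor that moves the ribosome along. Its FPKM was 20.9 at 16 °C, 25 at 24 °C, 57.4 after incubation and 51.2 unstored. At least 1.5-fold lower were 4 of the 11 (36.4%) at 16 °C and at 24 °C, beside 20.7% and 20.2% of all genes. Besides GFM1 these were LRPPRC (-0.82 and -0.68), LETM1 (-0.62 and -0.85) and MRRFP1 (-0.69 and -0.78). The gene table lists MRRFP1 with MRRF as an older symbol, and it was at FPKM 2.96 or less. In the incubated library 2 (18.2%) were that far lower and 2 that far higher, beside 9.45% and 22.2%. After incubation 1 of the 11 was 2-fold lower, MTFMT, which formylates the initiator transfer RNA, with FPKM 5.66 against 12.5 unstored (-1.02), beside 2.55% of all genes. The median of the 11 was -0.18 at 16 °C, -0.04 at 24 °C and 0.16 after incubation, and over the alternatives it ran from -0.13 to 0.08 at 24 °C, so no direction is given there. Of 18 genes measured among 27 listed for assembly and modification of ribosomal RNA, none was 2-fold lower at 16 °C, beside 8.75% of all genes, and 3 (16.7%) were at 24 °C, beside 8.37%, namely the assembly factors RCC1L (-1.16) and MPV17L2 (-1.05) and the RNA methyltransferase MRM3 (-1.14). Their median was -0.38 at both temperatures and -0.09 after incubation. At least 1.5-fold lower were 4 (22.2%) at 16 °C, beside 20.7% of all genes, and 6 (33.3%) at 24 °C, beside 20.2%. MTG1, a GTPase of large subunit assembly, ran the other way, with FPKM 18.9 at 16 °C, 24.1 at 24 °C and 11.6 unstored.

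Of 8 mitochondrial tRNA synthetases measured among 17 listed, PARS2 was 2-fold lower at 24 °C (-1.08), which is 12.5% beside 8.37% of all genes. None was at 16 °C or after incubation, beside 8.75% and 2.55%. At least 1.5-fold lower was 1 of the 8 (12.5%) at 16 °C and at 24 °C, beside 20.7% and 20.2% of all genes. The medians of the 8 were -0.27 at 16 °C, -0.09 at 24 °C and 0.11 after incubation. Over the alternatives they ran from -0.12 to 0.03 at 24 °C and from -0.02 to 0.13 after incubation, so no direction is given for these. Of 4 genes of mitochondrial transcription and replication measured among 7 listed, C10orf2, the Twinkle helicase of mitochondrial DNA, was 2-fold lower at 24 °C (-1.36), again beside 8.37% of all genes. TFAM, which packages mitochondrial DNA, had FPKM 85.3 at 16 °C, 78.6 at 24 °C, 71.9 after incubation and 76.5 unstored, a narrow range. Median log2 ratios of the 4 were -0.66, -0.67 and -0.11 in the same comparisons.

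Of 9 listed regulators known for nuclear genes of mitochondria, 6 were measured. NRF1 had FPKM 21.9 at 4 °C, 19.1 at 16 °C, 11.6 at 24 °C, 5.61 after incubation and 21.4 unstored, and was lowest after incubation (-1.76). MYC had 88.2 at 4 °C, 31.0 at 16 °C (-1.36), 25.3 at 24 °C (-1.64), 57.8 after incubation and 81.2 unstored. GABPA, a subunit of another of these factors, had 115 at 4 °C, 111 at 16 °C, 98.2 at 24 °C, 93.0 after incubation and 114 unstored. YY2, which the gene table lists with YY1 as an older symbol, was at -0.51 at 16 °C, -1.11 at 24 °C and 0.37 after incubation. GABPB1 lay between -0.37 and 0.00 in the 4 comparisons with unstored. PPARGC1A, a coactivator, had 6.25 after incubation and 1.92 unstored (1.31). Their part in the levels of the members was not tested.

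The 61 measured genes named as proteins of the cytosolic ribosome gave another picture at 16 and 24 °C. Their median log2 ratio was -0.01 at 4 °C, 0.00 at 16 °C, 0.22 at 24 °C and -0.17 after incubation, and none was 2-fold lower or higher in these comparisons. Of all genes, 0.0909%, 8.75%, 8.37% and 2.55% were 2-fold lower in that order, and 0.637%, 7.66%, 10.5% and 8.48% were 2-fold higher. The cytosolic genes also had much higher levels, with an unstored median FPKM of 371, where that of the members was 28.7. At 24 °C 54 of the 61 were higher than unstored, against 7 of the 55 mitochondrial members and 51.6% of all genes. After incubation 45 of the 61 were lower than unstored, as were 46 of the 55 members, beside 41.4% of all genes. With 1 library per condition the difference between these lists has no test. The cytosolic list was taken by name and also holds RPL7L1 and RPS19BP1, whose place in that ribosome was not checked.

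**Figure D5:**
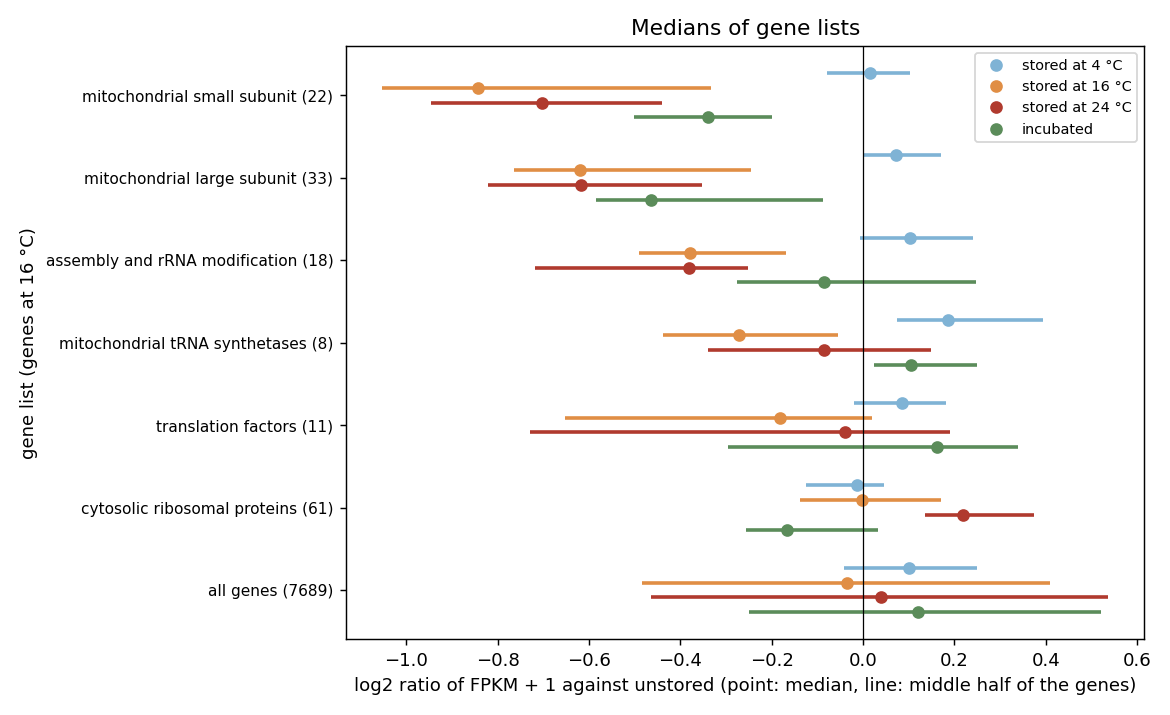
Points give the median and lines the interquartile range of log2 ratios of FPKM + 1 against the unstored library (horizontal axis), for lists of genes (vertical axis, with the number of genes compared at 16 °C) and for storage at 4, 16 and 24 °C and incubation in colours. The mitochondrial subunits lie at -0.84 and -0.62 at 16 °C, and the cytosolic ribosomal proteins at 0.00 there and at 0.22 at 24 °C.

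Some members have several rows or a close neighbour, which bears on how far their values can be read. Among the 47 members with 1 matched accession the median was -0.63 at 16 °C and -0.69 at 24 °C. MRPS16, with 3 rows, had 1 row at FPKM 2.14 at 16 °C, 3.31 at 24 °C and 1.31 unstored, and another at 1.04, 1.37 and 4.11 in the same libraries, so these rows differed in opposite directions at low values. MRPS31 had 1 row at 26.9 at 16 °C, 23.2 at 24 °C and 26.1 unstored, and another at 15.5, 11.8 and 22.3. MRPS11 and MRPL46 are next to each other in the order of coding genes of the assembly GRCg7b, the only such pair among the members, yet MRPS11 had log2 ratios of -0.50 and -0.44 at 16 and 24 °C where MRPL46 had -1.37 and -1.62. No source used here states that strand entered the estimation, so reads where 2 genes overlap may not be told apart.

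In tissue of many cells, fewer cells of a type and less RNA per cell cannot be told apart. Of 7 epiblast markers, 6 had a matched row, and 5 of these were at FPKM 1 or more in every library. Their summed FPKM was 1353 at 4 °C, 803 at 16 °C, 709 at 24 °C, 906 after incubation and 1321 unstored. NANOG and EPCAM made up most of this sum, and single markers went other ways in some libraries. Against unstored, NANOG (-1.22 at 16 °C and -1.23 at 24 °C), SOX3 (-1.88 and -1.39) and EPCAM (-0.24 and -0.59) were lower at both temperatures. LIN28A was lower at both as well, with FPKM 14.19 at 16 °C, 21.04 at 24 °C and 59.6 unstored. Its log2 ratios were the lowest of the 5 markers at both temperatures. After incubation LIN28A was higher than unstored, at 88.1. CDH1 had 14.97 at 24 °C, 14.98 after incubation and 12.8 unstored. Summed FPKM of 4 hypoblast markers was 40.5, 18.7, 36.5 and 56.0 in those libraries and 14.95 unstored. At 16 °C HHEX (0.53) and HNF4A (0.18) were higher than unstored, and SOX17 (-0.15) and CER1 (-0.06) were lower. After incubation HHEX was lower (-0.36), while HNF4A had 26.3 against 0.83 unstored. Summed FPKM of 3 primitive streak markers was 40.0, 14.3, 31.1 and 42.1 in the same libraries and 19.3 unstored, and these moved apart as well. At 24 °C TBXT had 27.5 and 4.97 unstored (2.26), while EOMES had 2.46 at 24 °C and 14.2 unstored (-2.14). Markers of red blood cells (3 of 4 matched) were below FPKM 1 in every library, with HBBA listed at 0 in 4 of them. Of 3 white blood cell markers only PTPRC reached 1, at 1.24 at 16 °C and 1.07 at 24 °C. Of 3 matched muscle and neural markers only ELAVL4 did, at 3.17 or less. The part of cell makeup in the levels of the members was not tested.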

How the data were processed

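The authors deposited 1 table of FPKM per library, with 32188 rows, each a RefSeq transcript, as the file headers and first column show. The submitters' processing notes name the build galGal4, Cufflinks 2.0.2 and TopHat2 2.0.8 but not what each did. The annotation used and any step that put libraries on one scale were not given in the sources used here. FPKM are model estimates with 2 decimals, so depth is unknown, no interval was computed, and an exact 0 can be a failed estimate. FPKM summed to between 333528 and 389061 per library.

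Accessions without their version were matched to a RefSeq gene table of GRCg7b, whose coordinates were used only for the order of genes. Of the rows, 12609 (39.2%) received a symbol, and rows of a symbol were summed. The 55 members rest on 65 rows, 42 curated and 23 predicted, 11 of them with the same version. An isoform whose accession was not matched is missing from a gene's value. A gene was kept if any library had it at FPKM 1 or more, which left 7733. Differences of log2(FPKM + 1) were computed with pandas 2.3.3 in Python 3.11.15, for genes above 0 in both libraries, and the calling was tested on simulated data. No scaling was added in the values given first. All genes together had a median of 0.10 at 4 °C and 0.12 after incubation against unstored, and of -0.15 at 16 °C against 4 °C and against incubation.

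The members and lists were chosen with earlier results of these data known. The rule for naming took members 2-fold different from unstored, the 5 highest and 5 lowest in each comparison with unstored (FPKM of at least 5 in 1 library), and the 5 highest and 3 lowest means, 34 genes in all. Others were named by role after their values were seen, and so were the extremes in the comparisons that leave out the unstored library. The pattern for cytosolic ribosomal proteins also took 5 S6 kinase genes, which were left out after the data were seen. Other genes that share the name pattern, such as RPL7L1 and RPS19BP1, were kept. Sequences and promoter motifs were not analysed here. As alternatives, the pseudocount was set to 0.1 or 5, the filter was dropped or replaced by a mean FPKM of 5, libraries were divided by median-ratio size factors or rescaled to a total of 1000000, the highest row stood for a gene, and genes were limited to those with 1 accession or to curated accessions.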

Additional observations from a re-analysis of the deposited data

How the results depend on the processing

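The median log2 ratio of the members stayed below 0 at 16 °C (-0.72 to -0.50), 24 °C (-0.69 to -0.54) and after incubation (-0.55 to -0.33) under all 9 alternatives. Of 225 values recomputed for the members, 201 stayed within 0.1 (log2) or 1.5 times. This is not a rate of robustness. Of the 201, 25 come from dropping the filter, which all 55 members pass, so they could not change. A mean FPKM of 5 kept 54 of the 55, and counts of 0 that stayed 0 are included. Of 581 further values, for subunits, gene lists and single members, 101 were labelled as moved. That label also went to single members that fell below 2-fold, and to the 4 large subunit sums without MRPL3 whatever their size. The sign turned under some alternatives for the medians of translation factors at 24 °C, tRNA synthetases at 24 °C and after incubation, cytosolic ribosomal proteins at 16 °C, and subunits and several lists at 4 °C. With a pseudocount of 5 the median at 16 °C was -0.50. The members 2-fold lower were then 4 (7.27%) at 16 °C, 3 (5.45%) at 24 °C and 1 (1.82%) after incubation. Of all genes, 4.06%, 4.40% and 0.883% were. Those 1.5-fold lower were 7 (12.7%) after incubation and 1 (1.82%) for 24 against 16 °C, beside 5.19% and 2.70% of all genes. At 4 °C 0 were 1.5-fold higher, beside 0.909%. A larger pseudocount shrinks ratios by construction. With size factors the median was -0.055 at 4 °C and -0.55 after incubation. After incubation 4 members were then 2-fold and 24 were 1.5-fold lower, beside 3.60% and 13.1% of all genes. At 4 °C 0 were 1.5-fold higher, beside 2.52%. With size factors 16.4% of the members were 2-fold lower at 24 °C, beside 9.14% of all genes. With FPKM rescaled to 1000000 per library, which also lowers the weight of the pseudocount, the median at 24 °C was -0.54. There 4 members (7.27%) were 2-fold lower, beside 8.28% of all genes. At least 1.5-fold higher were 0 at 4 °C, 1 at 16 °C, 2 at 24 °C, 1 after incubation and 2 for 24 against 16 °C. The shares of all genes were 5.01%, 25.1%, 30.7%, 26.4% and 15.2% in that order. With a pseudocount of 0.1, 2 members were 1.5-fold higher for 24 against 16 °C, beside 16.6% of all genes. With the highest row 1 was, beside 12.3%. With 1 accession or curated accessions only, which drop MRPL17, 0 were 1.5-fold higher at 4 °C, beside 4.10% and 3.73% of all genes. With curated ones 1 (2.78%) was 2-fold lower after incubation, beside 2.52%. The 19 differences of members past 2-fold kept their sign, a weak check because they were chosen for being that large. Of their 165 recomputed values, 19 were below 2-fold. The members highest at 4 °C were 34 as deposited, 21 rescaled and 15 with size factors, and those highest in the unstored library were 11, 22 and 30. Leaving out a replicate could not be done, and depth is unknown, so no limit of detection is given. The search for promoter motifs was not run. No paired analysis was possible because each condition had 1 library.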
